A study of Mus musculus with 46 samples.

Results

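Tumours with disrupted Pbrm1 were compared with tumours with disrupted Arid1a in mice whose sarcomas are driven by the fusion oncoprotein SS18::SSX2. The members were the 8 RNA libraries whose titles name the SSX2 background with Pbrm1 and the 8 whose titles name it with Arid1a, 16 of the 46 libraries of the series. The study generated mouse synovial sarcomas by injecting TATCre, a cell-permeable Cre recombinase protein, into the limb at 8 days of age. Cre then releases human SS18::SSX2 from the Rosa26 locus (hSS2) and, in the same cells, excises exon 11 of floxed Pbrm1 or exon 8 of floxed Arid1a. The study describes the floxed tumours of its RNA comparisons as homozygous, and the titles do not give the number of floxed alleles. The hSS2 Pbrm1-fl and hSS2 Arid1a-fl groups therefore share the fusion, the Cre and the day of injection, and hSS2 control tumours carry the fusion with neither deletion. The mice were of a mixed CB57Bl/6-svJ strain, 2 to 6 months old, and of both sexes. TATCre acts in whichever limb cells take it up, so no promoter restricts the deletion to a cell type, and whole frozen tumour pieces were sequenced. In such bulk samples, fewer cells of a type and less RNA per cell cannot be told apart.

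BAF-family complexes use the ATPases Smarca4 or Smarca2 to slide or evict nucleosomes, and exist in several forms that share a core. Pbrm1 is a bromodomain subunit found only in the polybromo form (PBAF), which sits mainly near transcription start sites, whereas Arid1a is a DNA-binding subunit of canonical BAF (CBAF), which is known for its part in enhancer activity. SS18, the partner of SSX in the fusion, belongs to CBAF and to the non-canonical GBAF form but not to PBAF, so the comparison sets loss of a subunit that never shares a complex with the fusion against loss of a subunit that can.

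The mouse numbers in the titles do not overlap between the groups. All 8 Pbrm1-fl mice were numbered 2000 and over, and all 8 Arid1a-fl mice under 1000. The labels do not say what a number range stands for, and the floxed gene and the range cannot be told apart in the direct comparison. Control tumours existed in both ranges, 4 numbered 2000 and over and 5 under 1000. Each gene was therefore tested directly, Pbrm1-fl minus Arid1a-fl, and a second time as a range-matched difference, in which each group was first set against control tumours of its own range. Levels are in CPM, counts divided by the TMM-scaled library total with the same multiplier in every library, differences are log2 values with a standard error (SE) taken as Pbrm1-fl minus Arid1a-fl, and a gene passed at an adjusted p under 0.05 in edgeR's quasi-likelihood test, with Benjamini-Hochberg adjustment over 20083 genes. Library totals ran from 10613976 to 19568596 counts in Pbrm1-fl, from 12681941 to 18263209 in Arid1a-fl and from 13488206 to 19443555 in control tumours.

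The targeted genes were measured first, since they check the labels. Pbrm1 (chr14:31019138-31121592, mm10) had a lowest level of 95.0 CPM, a median of 97.1 and a highest of 139 in Pbrm1-fl tumours, and 258, 293 and 323 CPM in Arid1a-fl tumours. The groups did not overlap, and the direct log2 difference was -1.51 (SE 0.10, adjusted p 2.63e-13). Arid1a (chr4:133679008-133756769) ran in the opposite direction, with a lowest, median and highest level of 376, 514 and 722 CPM in Pbrm1-fl against 229, 247 and 276 CPM in Arid1a-fl tumours. Its direct difference was 1.10 (SE 0.14, adjusted p 3.82e-06), again without overlap. Each transcript was thus lower in the tumours in which it was floxed, but was not lost. The counts cover all exons of a gene, not the excised exon alone. The share of cells without recombination was not measured.

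**Figure D1:**
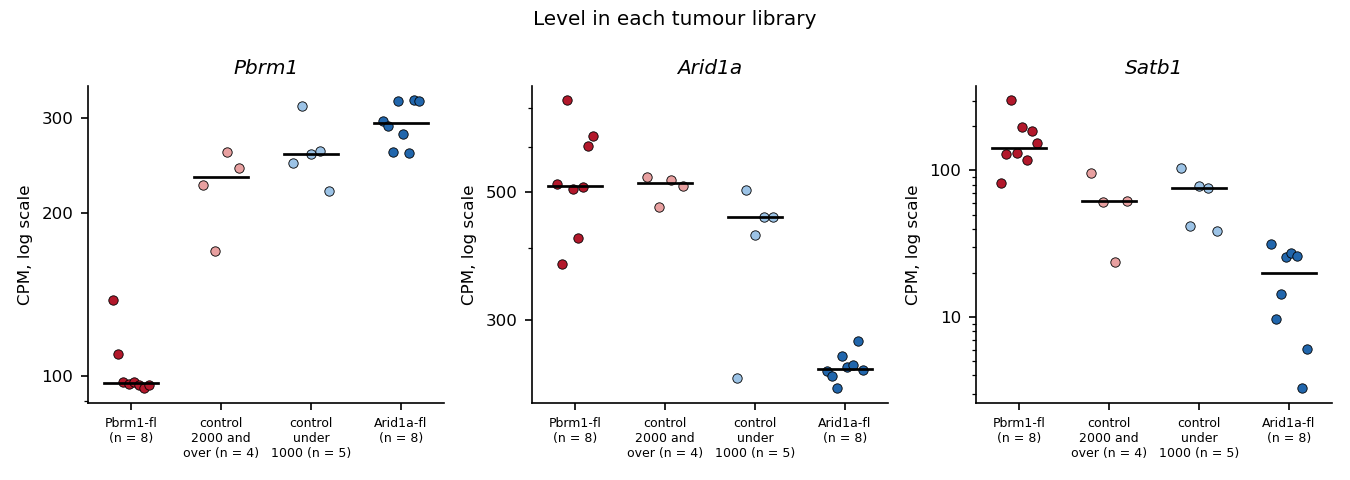
Level of Pbrm1, Arid1a and Satb1 in every library, in CPM on a log axis, for Pbrm1-fl tumours (n = 8), control tumours numbered 2000 and over (n = 4), control tumours numbered under 1000 (n = 5) and Arid1a-fl tumours (n = 8). Each point is a tumour and each bar the group median. The floxed groups do not overlap for any of the 3 genes, and 1 control tumour under 1000 lies among the Arid1a-fl tumours for Arid1a, at 238 CPM.

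Against control tumours of its own range, Pbrm1 was lower by a log2 difference of -1.11 in Pbrm1-fl (adjusted p 1.09e-07) and stood at 0.18 in Arid1a-fl (adjusted p 0.282). Arid1a was lower by -0.73 in Arid1a-fl (adjusted p 0.00478) and stood at 0.07 in Pbrm1-fl (adjusted p 0.932). The library labelled hSS2 control replicate 9 goes against its label, with 238 CPM of Arid1a where the other 4 control tumours under 1000 had 422 to 505 CPM. That library stayed in the group of its label. The range-matched difference of Arid1a was 0.80 (adjusted p 0.0453) with that library and 0.95 (adjusted p 0.0145) without it, and missed the threshold in 16 of 25 fits that each left out 1 tumour. Pbrm1 had a range-matched difference of -1.29 (adjusted p 1.28e-05).

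Few other subunits of these complexes passed the test. Of the 4 PBAF-specific genes only Pbrm1 passed the direct test. Arid2, the subunit that anchors Pbrm1 in the complex, had a difference of -0.19 (adjusted p 0.418), Brd7 of -0.18 (adjusted p 0.184) and Phf10 of -0.12 (adjusted p 0.362). Of the 5 CBAF-specific genes only Arid1a passed, and its paralog Arid1b had a difference of 0.29 (adjusted p 0.373). None of the 3 GBAF-specific genes passed. Of the 15 tested shared subunits, the SS18 paralog Ss18l1 was higher in Pbrm1-fl by 0.47 (SE 0.12, adjusted p 0.0109), with medians of 21.9 and 15.8 CPM and overlapping groups. Its range-matched difference of 0.22 did not pass (adjusted p 0.579). Smarca4 had a difference of 0.11 (adjusted p 0.633).

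The groups differed in 2468 of 20083 genes, or 12.3%, of which 1363 were higher and 1105 lower in Pbrm1-fl tumours, and before adjustment 5374 genes were under 0.05. The difference was at least 1 on the log2 scale in 1394 of them. For 392 genes (1.95%) the 8 Pbrm1-fl tumours did not overlap the 8 Arid1a-fl tumours, 221 with Pbrm1-fl above (1.1%) and 171 with it below (0.851%). Control tumours of the same 2 ranges, compared with each other, differed in 351 genes (1.75%). Of these, 30 (8.55%) were among the 2468, 27 of them in the same direction. That comparison had 4 and 5 tumours where the direct one had 8 and 8, so the 2 counts do not measure how much the range contributed. The range-matched test called 436 genes (2.17%), 204 higher (1.02%) and 232 lower, and 4047 before adjustment. It rests on few control tumours and its count moved from 94 without control replicate 3 to 1405 without control replicate 4.

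Both tests called 232 genes (1.16%), 110 higher (0.548%) and 122 lower (0.607%) in Pbrm1-fl, each in the same direction in both tests, which use the same 16 floxed tumours. Of these, 99 passed against control tumours of their own range only in Pbrm1-fl, 80 only in Arid1a-fl, 9 in both groups in opposite directions, and 44 in neither. Over all genes, Pbrm1-fl was higher than its own control tumours for 104 genes and lower for 373, and Arid1a-fl for 598 and 807. Among the 122 lower genes 77 passed only on the Pbrm1-fl side and 25 only on the Arid1a-fl side. Among the 110 higher genes 22 passed only on the Pbrm1-fl side and 55 only on the Arid1a-fl side. The genes that passed on both sides included the 4 unconfirmed transcripts Gm37266, Gm36931, E430014B02Rik and C230085N15Rik at Satb1, and Ifih1 and Slc16a11, all up in Pbrm1-fl and down in Arid1a-fl, and Tram1l1 and Kank4, which ran the other way. Slc16a11, Tram1l1 and Kank4 are named here after their values were seen. Against its own control tumours Pbrm1-fl differed in 477 genes (2.38%) and Arid1a-fl in 1405 (7%), without shared samples, and 23 genes were on both lists, 4.82% of the first and 1.64% of the second. Without the library labelled control replicate 9 the range-matched test called 607 genes, 268 genes passed both tests, 209 of them among the 232, and Arid1a-fl differed from its controls in 1094 genes.

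**Figure D2:**
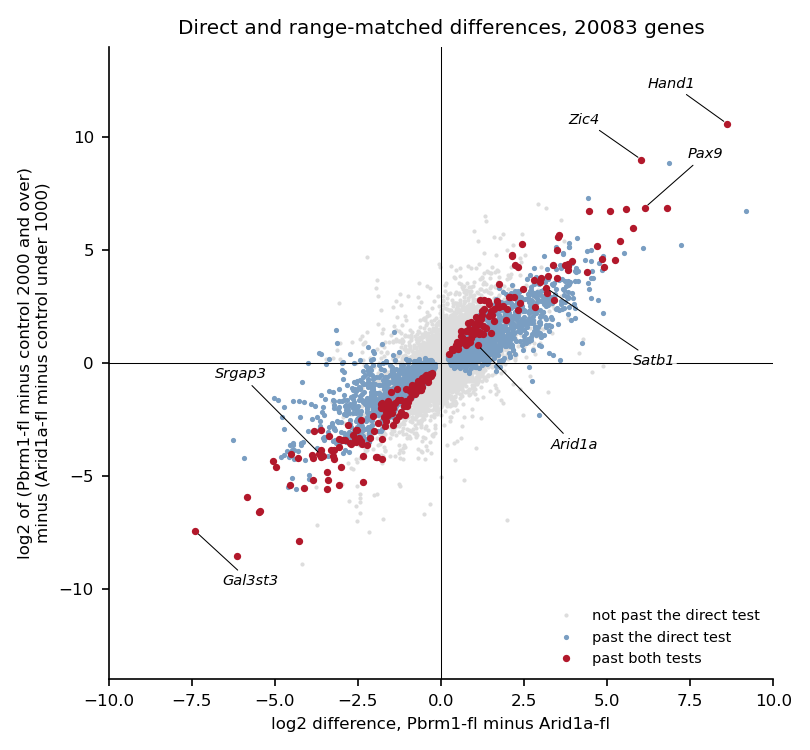
Log2 difference Pbrm1-fl minus Arid1a-fl (x axis) against the range-matched difference (y axis) for 20083 genes. Grey points did not pass the direct test, blue points passed it, and red points are the 232 genes past both tests, all of them in the lower left or upper right of the plot.

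Satb1 (chr17:51736187-51833290, minus strand) lies in a locus whose transcripts separated the groups together. It encodes a chromatin organizer that binds AT-rich DNA and is best known from T cell development. Its lowest, median and highest levels were 82.0, 143 and 301 CPM in Pbrm1-fl and 3.26, 20.1 and 31.3 CPM in Arid1a-fl tumours. Of the 9 control tumours of both ranges 6 lay between the groups. Those numbered 2000 and over had 96.1, 61.1, 23.9 and 62.2 CPM in replicates 1 to 4, and those under 1000 had 104, 41.5, 78.0, 76.5 and 38.5 CPM in replicates 9 to 13. Control replicates 1 and 9 were within the Pbrm1-fl values and replicate 3 within the Arid1a-fl values. Every Arid1a-fl tumour was below every control tumour of its own range, and the lowest Pbrm1-fl tumour was below 1 of the 4 control tumours of its range. The direct difference was 3.17 (SE 0.42, adjusted p 7.26e-06) and the range-matched difference 3.32 (SE 0.69, adjusted p 0.0135). Against its own controls Arid1a-fl was lower by a difference of -1.91 (SE 0.44, adjusted p 0.0109), and Pbrm1-fl had a difference of 1.42 (SE 0.52) that did not pass (adjusted p 0.154). The T and NK lymphocyte markers had a summed level of 1.1 to 66.1 CPM in Pbrm1-fl and 2.1 to 10.5 CPM in Arid1a-fl tumours, with the highest in Pbrm1-fl replicate 1. Satb1 passed the direct test in every fit that left out 1 of the 16 tumours, with a highest adjusted p of 4.31e-05.

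Within 1 Mb of Satb1, 9 of the 10 other tested genes (90%) were higher in Pbrm1-fl tumours, where 6.79% of all tested genes were. All 9 also passed the range-matched test, and for each of them the groups did not overlap. All 9 are listed in the annotation as transcripts that await experimental proof. Of these, 5 lie inside Satb1 on its own strand, with direct differences of 3.74 for E430014B02Rik, 3.48 for C230085N15Rik, 3.81 for Gm36931, 3.82 for 5830444F18Rik and 3.81 for Gm37248. The other 4 are on the opposite strand. Gm6934 (chr17:51832819-51834723) spans the Satb1 start and had a difference of 5.39. Gm37593, Gm37266 and Gm37176 begin 9.57, 16.9 and 25.9 kb upstream of that start and had differences of 4.92, 5.23 and 4.85. Gm37266 had a median of 3.68 CPM in Pbrm1-fl and 0.118 CPM in Arid1a-fl tumours. The strand setting of the counting was not given in the sources used here, so reads of Satb1 and of a transcript inside it or across its start cannot be assigned with certainty. The remaining gene was Tbc1d5, 654 kb from the Satb1 start at the other end of the gene, with 73.4 ± 8.36 CPM (SD, n = 8) in Pbrm1-fl and 74.3 ± 6.09 CPM (SD, n = 8) in Arid1a-fl tumours and a difference of -0.02 (adjusted p 0.957). Against its own controls Tbc1d5 was higher in Arid1a-fl by 0.45 (adjusted p 0.0407) and had a difference of -0.10 in Pbrm1-fl (adjusted p 0.861). Its range-matched difference of -0.55 did not pass (adjusted p 0.112). The genes that passed the direct test thus covered Satb1 and the stretch just upstream of it. On the downstream side the next tested gene did not pass. On the upstream side the window held no tested gene beyond Gm37176, so that end was not bounded.

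**Figure D3:**
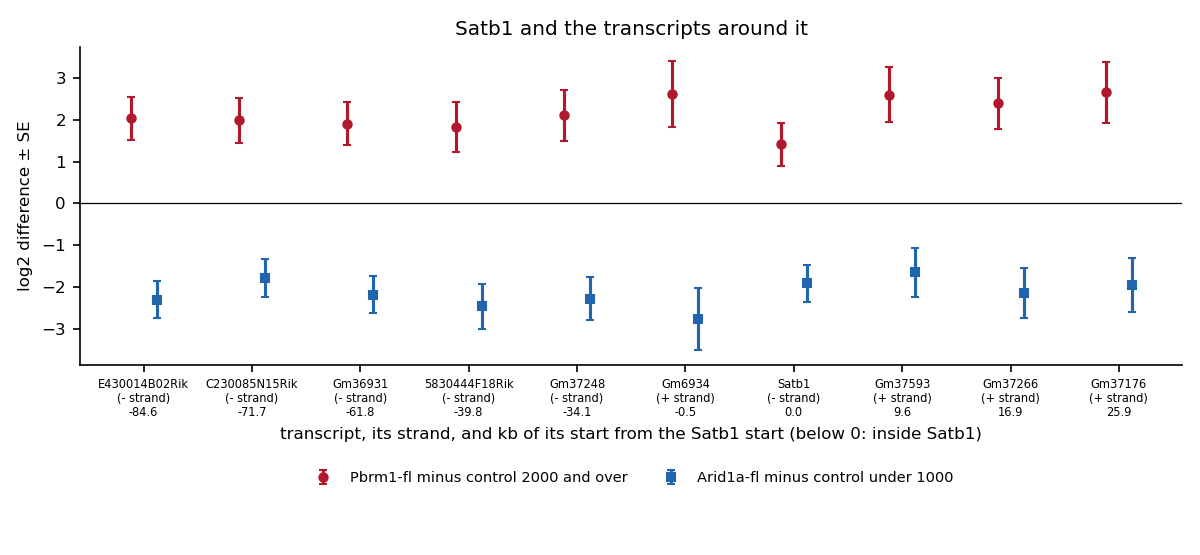
Log2 difference with its SE for Satb1 and the 9 unconfirmed transcripts around it, as Pbrm1-fl minus control tumours numbered 2000 and over (red circles) and Arid1a-fl minus control tumours under 1000 (blue squares), ordered by the distance of their starts from the Satb1 start in kb. All 10 red points lie above 0 and all 10 blue points below 0.

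The window around the Satb1 start, from 250 bases before it to 50 after it, is shown because transcripts on both sides of it moved with the gene, beside that of Glb1l, the lower gene with the smallest adjusted p other than Pbrm1. Both are from RefSeq on build GRCm38.p6, read 5′ to 3′ on the minus strand, and every CG dinucleotide is in capitals.
Satb1 (chr17:51833241-51833540): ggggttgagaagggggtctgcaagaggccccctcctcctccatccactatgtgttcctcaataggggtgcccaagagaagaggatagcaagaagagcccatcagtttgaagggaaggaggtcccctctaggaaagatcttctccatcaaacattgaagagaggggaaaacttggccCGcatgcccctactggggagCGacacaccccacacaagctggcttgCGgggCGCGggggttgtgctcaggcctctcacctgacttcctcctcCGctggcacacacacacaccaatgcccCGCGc
Glb1l (chr1:75210706-75211005): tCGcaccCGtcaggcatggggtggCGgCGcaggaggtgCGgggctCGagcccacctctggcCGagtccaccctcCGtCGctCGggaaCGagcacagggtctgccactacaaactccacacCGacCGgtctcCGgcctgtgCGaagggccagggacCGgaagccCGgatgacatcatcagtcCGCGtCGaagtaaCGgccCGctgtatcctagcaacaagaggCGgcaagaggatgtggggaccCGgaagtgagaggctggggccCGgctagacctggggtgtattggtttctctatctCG
The Satb1 window held 8 CG dinucleotides, a number reached by 83.7% of the 11537 windows found for tested protein-coding genes, and 59% G or C. The Glb1l window held 26, a number reached by 32.2% of them, and 65.3% G or C. CG reads the same on both strands, and the counts describe these windows only.

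Genes of antigen presentation were higher in Pbrm1-fl tumours. MHC class I molecules display peptides that the proteasome makes and the TAP transporter carries into the endoplasmic reticulum. Of 16 tested genes of this pathway 13 were higher and 1, the chaperone gene Calr, was lower (87.5%, against 12.3% of all genes), with a median difference of 1.52 against 0.02 over all genes. Tap2, which encodes a TAP subunit (chr17:34203527-34216321), had a lowest, median and highest level of 68.5, 88.0 and 92.3 CPM in Pbrm1-fl and 17.6, 37.1 and 54.3 CPM in Arid1a-fl tumours. The groups were apart, with a difference of 1.25 (SE 0.17, adjusted p 1.42e-05). Control tumours had 55.1, 39.8, 32.4 and 61.4 CPM in the range of Pbrm1-fl and 49.7, 33.8, 51.4, 53 and 50.4 CPM in that of Arid1a-fl, so that every Pbrm1-fl tumour was above every control tumour. Tap2 was higher in Pbrm1-fl than in its controls by 0.86 (adjusted p 0.0303) and had a difference of -0.41 in Arid1a-fl (adjusted p 0.188). Tap1, the other TAP subunit, was higher by 1.33 (adjusted p 0.000148), and Psmb9, a subunit of the immunoproteasome, by 1.79 (adjusted p 0.000183). The class I heavy chain gene H2-Q4 (chr17:35379617-35385290) had medians of 134 and 20.6 CPM and a difference of 2.38 (SE 0.41, adjusted p 0.000255). Reads of H2-Q4 can be split among near-identical class I genes, which makes its own level uncertain.

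In the range-matched test 2 of the 16 class I genes passed, Tap2 (1.27, adjusted p 0.0220) and H2-Q4 (2.65, adjusted p 0.0373), with a median of 1.54 over the list. Measured against their own controls, the list's medians were 1.00 in Pbrm1-fl and -0.59 in Arid1a-fl, each with 1 gene higher, Tap2 in the first and Calr in the second. Without Pbrm1-fl replicate 1, 12 genes were higher and 1 lower. Without the 8 libraries richest in skeletal muscle markers (3 Pbrm1-fl, 2 Arid1a-fl and 3 control), 6 were higher. Levels of leukocyte markers are given beside these genes. B lymphocyte markers summed to 5.32, 34.2 and 479 CPM (lowest, median and highest) in Pbrm1-fl and to 5.05, 8.1 and 18.4 CPM in Arid1a-fl tumours, with 1 of 3 tested markers, Pax5, past the test. Macrophage markers summed to 96.8, 392 and 1040 CPM and to 106, 238 and 766 CPM, with 0 of 12 past the test. The part of these cells in the class I result was not tested.

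Of 28 tested interferon-stimulated genes 5 were higher and none lower (17.9%, against 12.3% of all genes). The number higher was 4 without Pbrm1-fl replicate 1 and 2 without the 8 muscle-rich libraries. Ifih1 (chr2:62595798-62646255) encodes MDA5, a sensor of double-stranded RNA in the cytoplasm. It had 29.3, 51.3 and 69.1 CPM (lowest, median and highest) in Pbrm1-fl and 6.29, 13.5 and 21.9 CPM in Arid1a-fl tumours. The groups were apart, with a direct difference of 1.88 (SE 0.25, adjusted p 9.83e-06) and a range-matched difference of 2.53 (adjusted p 0.00277). Control tumours had 14.9, 19.6, 16.8 and 36 CPM in the range of Pbrm1-fl and 26.2, 16.5, 28.1, 44.3 and 55.8 CPM in that of Arid1a-fl. Ifih1 was higher in Pbrm1-fl than in its controls by 1.26 (adjusted p 0.0214) and lower in Arid1a-fl by a difference of -1.26 (adjusted p 0.00651). It was the only one of the 28 past the range-matched test. Cmpk2, a nucleotide kinase gene, was higher by 1.2 (adjusted p 0.00507). Irf7 and Irf9, transcription factors of the interferon response, were higher by 1.62 (adjusted p 0.00654) and 0.65 (adjusted p 0.0164). Irf7 reached 67 CPM in Pbrm1-fl replicate 1 where the other 7 had 15 to 28.2 CPM.

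**Figure D4:**
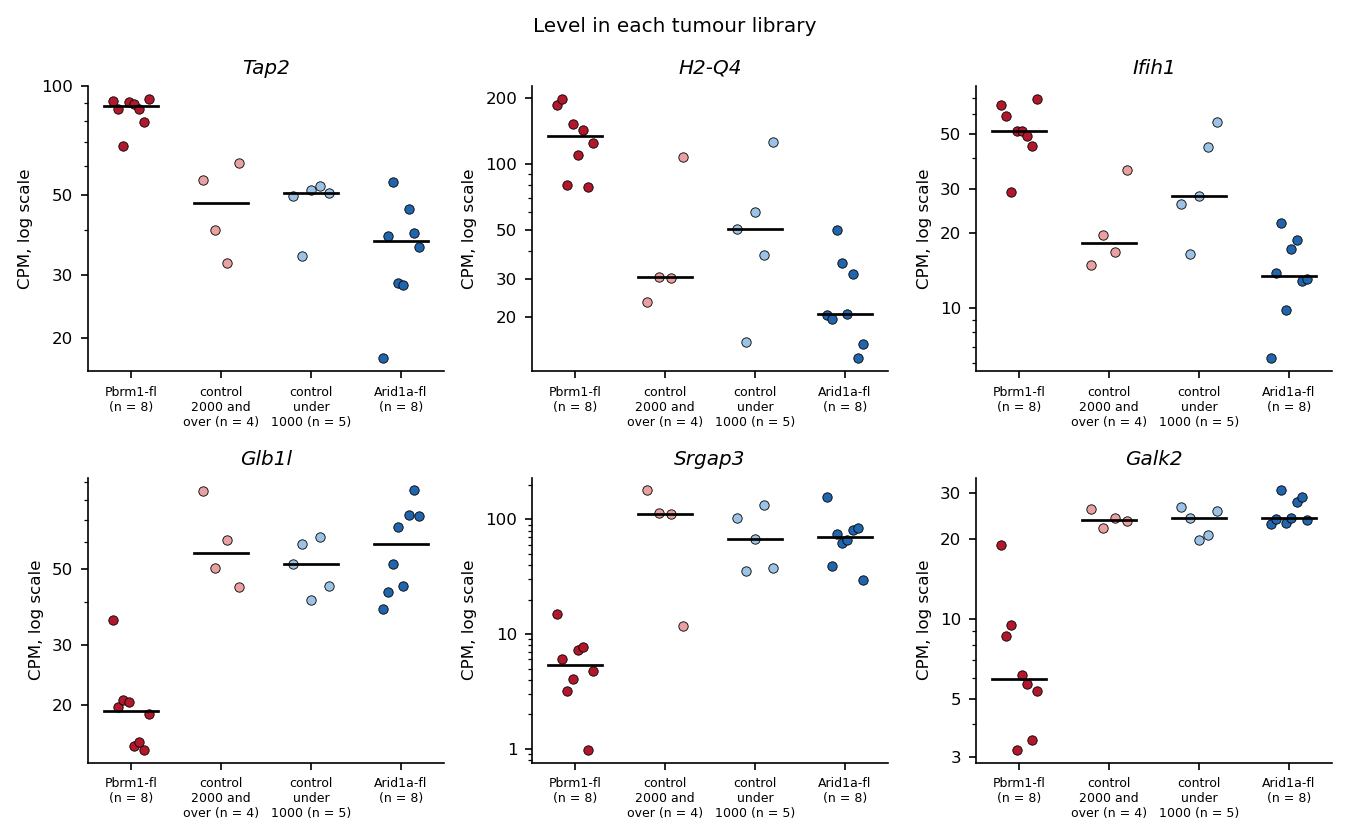
Level of 3 genes higher (Tap2, H2-Q4, Ifih1) and 3 genes lower (Glb1l, Srgap3, Galk2) in Pbrm1-fl than in Arid1a-fl tumours, in CPM on log axes, for each library of the 4 groups (n = 8, 4, 5 and 8 from left to right). Each bar is a group median. For the upper genes the Pbrm1-fl tumours are the highest group, with medians of 88.0, 134 and 51.3 CPM, and for the lower genes they are the lowest group, with medians of 19.2, 5.41 and 5.92 CPM.

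Of 71 tested transcription factors of development 19 were higher and 4 lower (32.4%, against 12.3% of all genes), and 8 were higher and none lower in the range-matched test. The list holds Satb1, which was given for the contrast and is counted as higher in both tests. It also holds Pax5, a B lymphocyte marker as well, counted as higher in the direct test only. Hand1 and Dmrta2, described below, are not in the list. Without the 8 muscle-rich libraries 14 were higher and 3 lower. Against their own controls 7 were higher in Pbrm1-fl, and 1 was higher and 3 were lower in Arid1a-fl. Hand1 (chr11:57828705-57832818), which acts in heart and limb development, had 0.904, 2.6 and 6.84 CPM (lowest, median and highest) in Pbrm1-fl and not a single read in the 8 Arid1a-fl tumours. Taking 3 counts over that group as the floor, it was at least 130-fold higher. Pax9 (chr12:56691767-56712822), a regulator of skeletal and tooth development, had 0.602, 27.1 and 208 CPM against 0.104, 0.549 and 1.9 CPM. The groups overlapped, and the difference was 6.13 (SE 1.26, adjusted p 0.00148). Zic4, a zinc finger gene of neural patterning, spread even further in Pbrm1-fl, from 0.228 to 115 CPM with a median of 6.52. Its level in Arid1a-fl was at most 1.19 CPM, and the difference was 6.03 (adjusted p 0.00617). Dlx4, a homeobox gene, was more even, at 4.87, 9.55 and 16.5 CPM against 0.0777, 0.453 and 0.793 CPM, with a difference of 4.39 (SE 0.70, adjusted p 0.000119). Dmrta2, a regulator of cortical progenitors, was higher by 3.39 (adjusted p 6.06e-06), and Tbr1, a factor of cortical neurons, by 3.23 (adjusted p 0.000351). Meis2, a homeobox partner of Hox proteins, was lower, with 69.0, 102 and 157 CPM against 211, 248 and 325 CPM and a difference of -1.28 (adjusted p 0.000177). Hand1, Pax9, Zic4, Dlx4, Dmrta2 and Tbr1 passed the range-matched test, and Meis2 did not (-0.62, adjusted p 0.291).

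Hox genes, which encode position along the body axis, ran the other way. Of 38 tested members of the 4 clusters 13 were lower and none higher in Pbrm1-fl tumours (34.2%), with a median of -1.26. In the range-matched test 0 passed and the median was -0.02. Without Pbrm1-fl replicate 1 the direct count was 10, and without the 8 muscle-rich libraries it was 1. Hoxa5 had 0.367, 1.67 and 2.95 CPM in Pbrm1-fl and 3.63, 11.5 and 47 CPM in Arid1a-fl tumours, a difference of -3.26 (adjusted p 0.00634) without overlap. Hoxa6 had a difference of -3.36 (adjusted p 0.00587) and Hoxd8 of -1.72 (adjusted p 0.00892), and their range-matched differences were -1.25 and -0.32. Hoxd1 had a difference of -4.43 (adjusted p 0.000955), with 0.62 and 5.52 CPM as medians. Its range-matched difference of -4.24 was close to the direct one but did not pass (adjusted p 0.0838). Hoxd1 was higher in Arid1a-fl than in its own controls by 3.83 (adjusted p 0.0253). The control tumours numbered 2000 and over, minus those under 1000, had differences of -1.99 for Hoxa5, -2.10 for Hoxa6 and -1.40 for Hoxd8, none of them past the threshold (adjusted p 0.165 to 0.289).

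Further higher genes with the smallest adjusted p or the largest differences served other functions. Gnai1 (chr5:18265135-18360355), which encodes an inhibitory G protein subunit, had 70.1, 134 and 186 CPM in Pbrm1-fl and 5.29, 18.1 and 33.9 CPM in Arid1a-fl tumours. The difference was 2.82 (SE 0.39, adjusted p 1.79e-05). The antisense transcript 9530082P21Rik, which overlaps Flywch1 and Kremen2, was higher by 1.97 (adjusted p 5.02e-06), with medians of 52.5 and 12.7 CPM that reads of the overlapping genes make uncertain. Tmem178, encoding a membrane protein of the endoplasmic reticulum, differed by 5.79 (adjusted p 8.14e-05) and Sntg1, encoding a syntrophin, by 5.58 (adjusted p 0.000183). Both groups overlapped for Tmem178, since Pbrm1-fl replicate 8 had 2.96 CPM where the other 7 had 101 to 528 CPM.

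Of 41 tested genes of peroxisomes and fatty acid oxidation 6 were higher and 1 lower (17.1%, against 12.3% of all genes), and 3 and 1 without the 8 muscle-rich libraries. Pex11a (chr7:79735957-79743131), which promotes peroxisome division, had 9.05, 10.1 and 13.9 CPM in Pbrm1-fl and 1.32, 4.05 and 5.59 CPM in Arid1a-fl tumours. The difference was 1.5 (SE 0.21, adjusted p 1.58e-05). It came from the Arid1a-fl side, which was lower than its own controls by a difference of -1.19 (adjusted p 0.00425), while Pbrm1-fl had a difference of 0.15 (adjusted p 0.892). Slc27a2, which encodes a fatty acid transporter and acyl-CoA synthetase, was higher by 2.06 (adjusted p 0.00496), and lower in Arid1a-fl than in its controls by a difference of -3.04 (adjusted p 0.00251). Pex16, needed for peroxisome membranes, was higher by 0.52 (adjusted p 0.00513), and Acox3, an oxidase of branched fatty acids, by 0.46 (adjusted p 0.00565). Pex11a and Slc27a2 were the 2 that passed the range-matched test.

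The lower genes with the smallest adjusted p mostly differed on the Pbrm1-fl side. Glb1l (chr1:75198236-75210813), a homologue of lysosomal beta-galactosidase, had 14.8, 19.2 and 35.5 CPM (lowest, median and highest) in Pbrm1-fl and 38.2, 59.2 and 85.2 CPM in Arid1a-fl tumours. The groups were apart, and the difference was -1.56 (SE 0.18, adjusted p 9.88e-07). Control tumours had 85.1, 50.3, 61 and 44.4 CPM in the range of Pbrm1-fl and 52, 59.2, 40.6, 62.0 and 44.6 CPM in that of Arid1a-fl, so that all of them were above every Pbrm1-fl tumour. Glb1l was lower in Pbrm1-fl than in its controls by a difference of -1.58 (adjusted p 3.33e-05) and stood at 0.19 in Arid1a-fl (adjusted p 0.575). Galk2 (chr2:125859109-125984299), which encodes a galactose and N-acetylgalactosamine kinase, had 3.2, 5.92 and 19 CPM against 22.9, 24.1 and 30.6 CPM. Its difference was -1.75 (SE 0.21, adjusted p 3.02e-06). The 9 control tumours of both ranges had 19.9 to 26.4 CPM, again above every Pbrm1-fl tumour.

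Srgap3 (chr6:112717971-112947266) encodes a GTPase-activating protein of the SLIT and ROBO guidance pathway. It had 0.979, 5.41 and 15.1 CPM in Pbrm1-fl and 29.6, 70.5 and 157 CPM in Arid1a-fl tumours. The groups were apart, with a difference of -3.61 (SE 0.46, adjusted p 6.06e-06), and Pbrm1-fl was lower than its controls by a difference of -4.09 (adjusted p 1.92e-05). Control replicate 4, with 11.8 CPM, was within the Pbrm1-fl values. Rbms3, an RNA-binding protein gene, was lower by a difference of -2.57 (adjusted p 5.03e-05), the synaptic scaffold gene Dlg2 by -3.60 (adjusted p 9.83e-06) and Rcbtb2 by -1.06 (adjusted p 3.39e-05), each without overlap. Card6, which encodes a caspase recruitment domain protein, was lower by a difference of -1.78 (adjusted p 6.06e-06) with overlap. Gal3st3, a sulfotransferase gene, had 5 counts in all 8 Pbrm1-fl libraries together and 1054 in Arid1a-fl. All of these passed the range-matched test and were lower in Pbrm1-fl than in control tumours of its range. Yet control replicate 4 was also within the Pbrm1-fl values for Dlg2 (1.40 CPM), Rcbtb2 (44.8 CPM) and Gal3st3 (0 CPM). For Dlg2 so was control replicate 2 (3.33 CPM).

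Some other lower genes passed on the Arid1a-fl side. Car12 (chr9:66713686-66766845), which encodes a membrane-bound carbonic anhydrase, had 0.0502, 0.179 and 0.456 CPM in Pbrm1-fl and 0.729, 3.44 and 62.8 CPM in Arid1a-fl tumours. Its difference was -5.83 (SE 0.77, adjusted p 7.26e-06), and it was higher in Arid1a-fl than in its controls by 3.8 (adjusted p 0.00751), although 3 Arid1a-fl tumours, at 0.729 to 1.25 CPM, were within the 0.462 to 1.92 CPM of those controls. Every Pbrm1-fl tumour was below the 0.608 to 1.17 CPM of its own controls, but that difference of -2.13 did not pass (adjusted p 0.175). Lrp8, a reelin receptor gene, had a difference of -4.54 (SE 0.92, adjusted p 0.00126) that rested in part on Arid1a-fl replicate 1, at 4878 CPM where the group median was 48.5. Without that tumour its adjusted p was 0.0140. Ano3, an anoctamin gene, had a difference of -5.46 (adjusted p 0.000526) and was higher in Arid1a-fl than in its controls by 4.17 (adjusted p 0.0233). The glutamate transporter gene Slc1a2 (-4.31, adjusted p 6.63e-05) and Pm20d1 (-5.06, adjusted p 0.000285), which encodes an enzyme making N-acyl amino acids, were in contrast lower in Pbrm1-fl than in its controls. For Slc1a2, control replicate 4, at 1.28 CPM, was within the Pbrm1-fl values. The long non-coding RNA C230004F18Rik had 0.0502, 0.123 and 0.876 CPM against 0, 0.704 and 88.8 CPM, with a difference of -6.15 (SE 1.47, adjusted p 0.00527) and overlapping groups. Its difference of 3.13 between Arid1a-fl and control tumours of that range did not pass (adjusted p 0.165). Gm20075 was lower by a difference of -2.45 (SE 0.37, adjusted p 6.84e-05) without overlap, at medians of 0.488 and 2.87 CPM, but did not pass the range-matched test (-1.10, adjusted p 0.268).

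Of 24 tested lysosomal glycosidases and enzymes of galactose use 5 were lower and none higher (20.8%, against 12.3% of all genes). The 5 include Glb1l and Galk2, around which the list was built and which were its only members past the range-matched test. Gusb, beta-glucuronidase, had a difference of -0.91 (adjusted p 0.00287) and Hexa, a hexosaminidase subunit gene, of -0.84 (adjusted p 0.0102), with overlap between the groups. Of 10 SLIT, ROBO and srGAP genes 1 was higher and 1, Srgap3, lower (20%). In the range-matched test Srgap3 and its relative Srgap2 (-0.56, adjusted p 0.0408) passed, where the direct difference of Srgap2 was -0.26 (adjusted p 0.0677). The ligand gene Slit2 was higher by 3.09 (adjusted p 0.0292), at medians of 291 and 23.5 CPM, and missed the threshold without Arid1a-fl replicate 8 (adjusted p 0.0585). Of 31 semaphorins, plexins and neuropilins 4 were higher and 3 lower (22.6%), and none passed the range-matched test. Sema3e was higher by 3.30 (adjusted p 0.00114), and Sema5a, at 26.6, 63.1 and 214 CPM against 235, 318 and 494 CPM, was lower by a difference of -1.89 (adjusted p 0.00373).

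Wnt pathway genes were mostly higher among those called. Of 51 tested 14 were higher and 1 lower (29.4%, against 12.3% of all genes), and without the 8 muscle-rich libraries 9 and 2. The receptor gene Fzd6 was higher by 2.02 (adjusted p 0.000357). The secreted inhibitors Wif1 and Dkk2 were higher by 3.74 (adjusted p 0.000664) and 4.43 (adjusted p 0.000938). Wif1 had 5.27, 21.6 and 63.9 CPM against 0.4, 1.82 and 3.93 CPM, and was lower in Arid1a-fl than in its controls by a difference of -3.58 (adjusted p 0.00673), which was -1.77 without control replicate 9 (adjusted p 0.104). The ligand gene Wnt5b was lower by a difference of -1.66 (adjusted p 0.000183), and it was the only Wnt gene past the range-matched test (-2.16, adjusted p 0.0110).

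The IGF axis had 6 higher and 2 lower genes of 17 tested (47.1%), and 1 of the lower, the receptor substrate gene Irs1, past the range-matched test. The ligand gene Igf2 (chr7:142650766-142666816) had 29.9, 72.1 and 137 CPM in Pbrm1-fl and 4.12, 12 and 19.9 CPM in Arid1a-fl tumours, without overlap, and a difference of 2.62 (SE 0.54, adjusted p 0.00148). It was lower in Arid1a-fl than in its controls by a difference of -1.98 (adjusted p 0.0364). The binding protein gene Igfbp4 was higher by 2.90 (adjusted p 0.000690), and Igf2bp3 and Igf2bp1, whose proteins bind Igf2 mRNA, by 3.94 (adjusted p 0.00124) and 3.67 (adjusted p 0.00151). Igf2bp1 reached 53.4 CPM in Pbrm1-fl replicate 3 where the other 7 had 1.27 to 6.85 CPM. None of these 4 passed the range-matched test, with adjusted p from 0.0587 to 0.129.

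In 5 other groups the share past the direct test ran from 15.4% to 21.4%, against 12.3% of all genes, and 1 gene of the FGF list and none of the others passed the range-matched test. Of 19 Notch genes 3 were higher (15.8%), among them the receptor Notch2 by 0.99 (adjusted p 0.000385). Of 26 FGF genes 2 were higher and 2 lower (15.4%), and the receptor Fgfr1 was higher by 1.78 (adjusted p 0.00245). Hedgehog genes gave 1 higher, the receptor and target Ptch1 (1.54, adjusted p 0.00679), and 2 lower of 14 (21.4%). Of 36 TGF-beta and BMP genes 3 were higher and 3 lower (16.7%). The ligand genes Gdf5 and Tgfb3 were lower by differences of -4.77 (adjusted p 0.00076) and -1.85 (adjusted p 0.00285), and the BMP antagonist gene Grem1 was higher by 2.12 (adjusted p 0.00366). Among 36 matrix proteases and their inhibitors 3 were higher and 4 lower (19.4%), with Adamts9 at 57.1, 68.3 and 87.2 CPM against 123, 279 and 717 CPM (difference -2.16, adjusted p 0.000339).

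**Figure D5:**
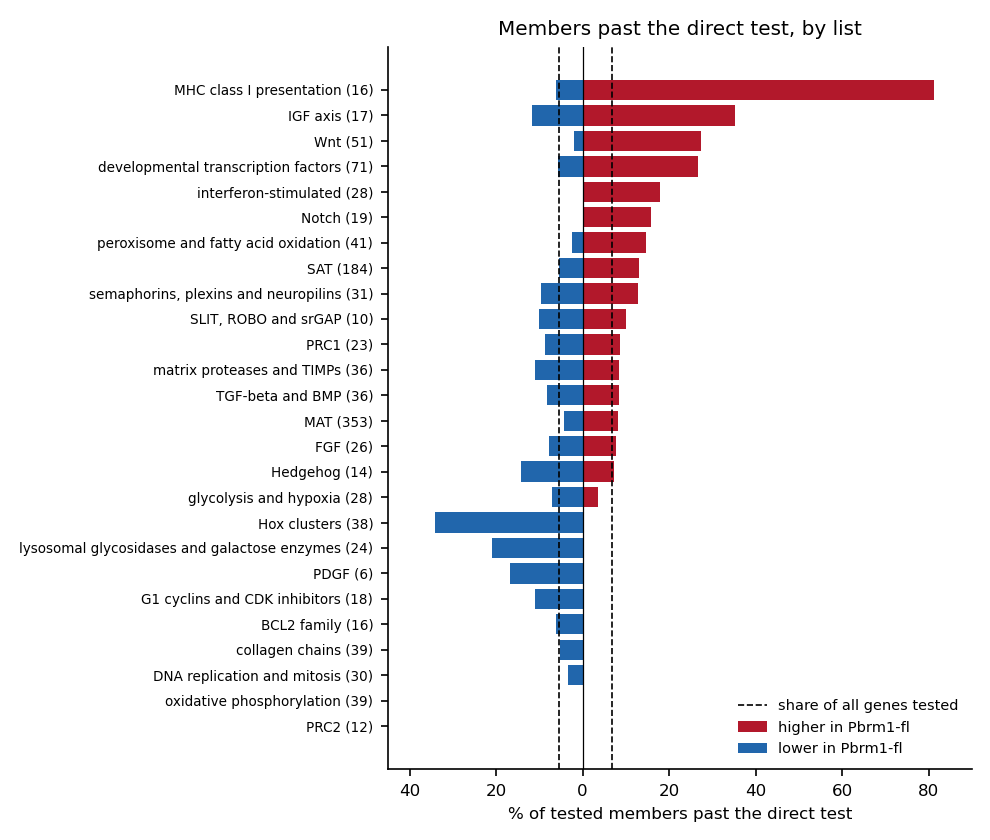
Share of the tested members of each gene list that were higher (red, right) or lower (blue, left) in Pbrm1-fl than in Arid1a-fl tumours in the direct test, with the number tested in brackets. The dashed lines are the shares over all 20083 genes, 6.79% higher and 5.5% lower. The MHC class I list stands farthest to the right and the Hox clusters farthest to the left.

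The study uses gene categories taken from single cells, among them sarcomagenesis activated transcription (SAT) and transcription kept active from the cell of origin to the tumour (MAT). Its category of genes silenced in sarcomagenesis was not analysed here. Of 184 tested SAT genes 24 were higher and 10 lower (18.5%), and 2 higher and 1 lower in the range-matched test. Kcns1, a potassium channel subunit gene, was higher by 3.45 (adjusted p 0.000262), the polarity gene Crb3 by 2.25 (adjusted p 0.00104) and the forkhead gene Foxe1 by 3.63 (adjusted p 0.00107). Sox11, a transcription factor of progenitor cells, was lower, at 7.01, 18.5 and 47.7 CPM against 41.8, 80 and 256 CPM, with a difference of -2.13 (adjusted p 0.000967). None of these 4 passed the range-matched test, with adjusted p from 0.0620 to 0.240. Of 353 tested MAT genes 29 were higher and 15 lower (12.5%), a share close to the 12.3% of all genes. Emc9, of the endoplasmic reticulum membrane complex, had 11.7, 13.2 and 17.6 CPM against 5.59, 6.57 and 7.76 CPM, a difference of 1.03 (adjusted p 0.000119). Epb41l3, a membrane skeleton gene, was higher by 1.54 (adjusted p 0.000179) and passed the range-matched test (2.13, adjusted p 0.0109), and Rsad1 was higher by 0.83 (adjusted p 0.000313). Without the 8 muscle-rich libraries 13 SAT genes were higher and 3 lower, and 14 MAT genes were higher and 10 lower.

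Of 23 genes of polycomb complex PRC1 2 were higher and 2 lower (17.4%, against 12.3% of all genes). Cbx7, the reader subunit, was higher by 0.94 (adjusted p 0.0152) and Pcgf1, of variant PRC1, by 0.48 (adjusted p 0.0273), while Phc2 and the H2A ubiquitin ligase gene Rnf2 were lower by differences of -0.34 (adjusted p 0.0154) and -0.41 (adjusted p 0.0298). Cbx7, Pcgf1, Phc2 and Rnf2 did not pass the range-matched test, with adjusted p from 0.0522 (Pcgf1) to 0.953 (Rnf2). The range-matched difference of Rnf2 was -0.03. In that test 1 other PRC1 gene was higher and none lower. None of the 12 PRC2 genes and none of the 7 DNA methylation genes passed the direct test. Of 30 genes of DNA replication and mitosis 1, Mcm4 (-0.84, adjusted p 0.0225), was lower (3.33%), although 29 of 30 had a difference below 0 and the median was -0.48. Set against their own controls, the list's median was 0.02 in Pbrm1-fl and 1.13 in Arid1a-fl, where 3 members were higher. Of these, Mcm3 and Mcm4 missed the threshold without control replicate 9 (adjusted p 0.0547 and 0.0513). Of 18 G1 cyclins, CDKs and inhibitors Cdk2 (-0.59, adjusted p 0.00874) and Cdk4 (-0.73, adjusted p 0.0257) were lower and none higher (11.1%). Without the 8 muscle-rich libraries 2 members were higher and none lower. The 2 past the range-matched test were the inhibitor genes Cdkn2a (-2.96, adjusted p 0.0388) and Cdkn2b (-2.02, adjusted p 0.0316), which did not pass the direct test (adjusted p 0.0587 and 0.0785).

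Genes of epithelial and mesenchymal state were mixed. Synovial sarcoma can form gland-like epithelium. Esrp2, an epithelial splicing regulator, was the 1 of 18 epithelial markers past the test (5.56%, against 12.3% of all genes). It was higher by 1.93 (adjusted p 0.00717), with overlap. The summed epithelial level ran from 157 to 407 CPM with a median of 224 in Pbrm1-fl, and from 71.2 to 234 CPM with a median of 142 in Arid1a-fl tumours. Of 11 mesenchymal markers 2 were higher and 2 lower (36.4%). Snai2 and Zeb1, repressors of epithelial genes, were lower by differences of -2.43 (adjusted p 0.000735) and -0.74 (adjusted p 0.0044), whereas their relative Zeb2 was higher by 1.74 (adjusted p 0.00165) and the cadherin gene Cdh11 by 1.42 (adjusted p 0.0478). None of these 5 passed the range-matched test.

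Markers of other cells in the pieces varied widely within both groups. Skeletal muscle markers summed to 19.5, 577 and 42500 CPM in Pbrm1-fl and to 21.3, 3580 and 27800 CPM in Arid1a-fl tumours, with 0 of 19 past the test. Of the endothelial (11), fibroblast (10), adipocyte (8), Schwann (5), erythroid (5), keratinocyte (3) and neutrophil (1) markers and of 5 sex-linked genes none passed. Of 9 pericyte and smooth muscle markers Cspg4 was lower (-0.93, adjusted p 0.0025). Of 7 T and NK lymphocyte markers Cd3e was higher (3.35, adjusted p 0.0341), but not without Pbrm1-fl replicate 1 (adjusted p 0.219). Without the 8 libraries above 10000 CPM of muscle markers the direct test called 1480 genes, 674 of them higher, and 198 genes passed both tests, 111 of them among the 232. The named genes that then missed the direct threshold were Ss18l1, Pex16, Acox3, Pax9, Hoxa5, Hoxa6, Hoxd8, Irf7, Irf9, Slit2, Fgfr1, Grem1, Cbx7, Phc2, Rnf2, Mcm4, Cdk2, Cdk4, Esrp2, Cdh11, Cd3e and Pax5. Their relation to muscle content beyond these counts was not tested.

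Some calls also rested on single tumours. Besides Slit2 and Cd3e, the direct calls of Pcgf1, Rnf2, Mcm4, Cdk4 and Cdh11 each missed the threshold in at least 1 fit that left out a tumour, with highest adjusted p of 0.0885 without Pbrm1-fl replicate 3, 0.0687 without Arid1a-fl replicate 4, 0.0772 without Arid1a-fl replicate 8, 0.0868 without Arid1a-fl replicate 1 and 0.106 without Pbrm1-fl replicate 8. Without the library labelled control replicate 9, the Arid1a-fl side of Gm37266 (adjusted p 0.105), C230085N15Rik (0.0822), Gm6934 (0.0869), Wif1 (0.104) and Ano3 (0.0518) no longer passed. That of Rsad1 (0.0576), Cdk2 (0.0574), Cdkn2a (0.0619), Pdgfa (0.0658), Smarca4 (0.071), Mcm3 and Mcm4 did not either. The range-matched difference of Zic4 (0.0505) also missed the threshold. The range-matched differences of Crb3, Fzd6, Grem1, Igfbp4 and Igf2 then passed, with adjusted p from 0.0355 to 0.0493.

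Genes near the floxed loci passed about as often as genes in general. Within 20 Mb of Pbrm1, 16 genes were higher and 12 lower of 263 tested (10.6%), and within 20 Mb of Arid1a 40 were higher and 26 lower of 564 (11.7%), where 12.3% of all tested genes passed.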

How the data were processed

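RNA from frozen mouse tumour pieces was depleted of ribosomal RNA and sequenced from stranded libraries. The authors deposited raw read counts per gene, made with STAR 2.7.11 and featureCounts 1.6.3 on mm10 per the labels and the study's methods. The annotation release, the strand setting and the handling of multimapping reads were not given in the sources used here. The table holds counts for 56980 genes in 37 hSS2 libraries, all mapped from their titles. Symbols and positions came from a GRCm38 annotation that matched 91.5% of the identifiers. The remaining identifiers held 1.97% of counts, and 137 identifiers shared a symbol with another.

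Genes were kept by filterByExpr (20083), libraries scaled by TMM, and the 37 libraries (8 Pbrm1-fl, 8 Arid1a-fl, 8 Arid1b-fl and 13 control) fitted together in edgeR 4.0.16 under R 4.3.3 with robust quasi-likelihood, two-sided F-tests and Benjamini-Hochberg adjustment at 0.05. The SE was the absolute log2 difference over the square root of F. The range-matched fit split control tumours by mouse number (under 1000, 1000 to 2000, 2000 and over). The labels give separate mice, so p-values measure the spread between tumours. The script was tested on simulated counts.

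Named genes were the 3 given for the contrast, the 12 higher and 12 lower genes of smallest adjusted p with a log2 difference of at least 1 and a mean of at least 1 CPM (with a symbol and outside the sex-linked list), genes within 1 Mb of Satb1 past the test, up to 4 genes per list of smallest adjusted p (all BAF subunits), and the 6 higher and 6 lower genes of largest difference past both tests, again with a mean of at least 1 CPM. One gene of the last set, at 3 counts in Arid1a-fl, is not described. Calr and Irs1 were named after their values were seen. Some results are not reported here. The members and the 47 gene lists were chosen with earlier results of these data known. Lists are described by counts and medians, with no set test.

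Alternatives were DESeq2 1.42.0, limma 3.58.1 voom with sample quality weights, RLE size factors, other filters and thresholds, a fit of the 16 libraries alone, and each tumour left out. Leaving out the 8 libraries above 10000 CPM of skeletal muscle markers, Pbrm1-fl replicate 1 or control replicate 9 was chosen after seeing the data. Depth limits genes near 0, where 3 counts over 8 libraries was taken as the floor. This covers counting error only. Promoter windows were found for 77.3% of tested protein-coding genes, under the 80% needed, so that a comparison of promoters of higher and lower genes is void and not given.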

Additional observations from a re-analysis of the deposited data

Results flagged for a closer look

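Within a group of 8, a tumour stood apart where its gap to the nearest other, over the group's range of log2 CPM, was above Dixon's critical value of 0.526. Chance does this in about 1 in 20 groups, and 18 of 207 groups of named genes did. Pbrm1-fl replicate 1 was high for Pbrm1 (139 CPM, the others 95 to 110), Glb1l (35.5 CPM, the others 14.7 to 20.7), Gal3st3 (0.292 CPM, the others at most 0.0669) and Irf7 (67 CPM, the others 15 to 28.2). This library also had the lowest total, 10613976 counts, and the highest summed lymphocyte markers of its group, and their part in these levels was not tested.

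Arid1a-fl replicate 1 was low for Slc1a2 (4.08 CPM, the others 28.8 to 104), Irf9 (35 CPM, the others 53 to 58.9) and Cdh11 (53.8 CPM, the others 180 to 353). Arid1a-fl replicate 7 was low for Notch2 (303 CPM, the others 400 to 453) and Esrp2 (1.27 CPM, the others 6.68 to 18.1). Arid1a-fl replicate 8 was low for Card6 (22.1 CPM, the others 33.7 to 48.3) and high for Cspg4 (94 CPM, the others 51.2 to 65.8). Pbrm1-fl replicate 8 was high for Rcbtb2 (55.9 CPM, the others 35.5 to 41.3) and low for Tmem178 (2.96 CPM, the others 101 to 528). Pbrm1-fl replicate 3 was high for Igf2bp1 (53.4 CPM, the others 1.27 to 6.85) and low for Zeb1 (30.8 CPM, the others 64.3 to 121). Gm20075 was low in Arid1a-fl replicate 4 (1.39 CPM, the others 2.55 to 3.4). Rsad1 was high in Arid1a-fl replicate 6 (16.1 CPM, the others 7.86 to 10.9), and Pm20d1 in Pbrm1-fl replicate 2 (0.456 CPM, the others at most 0.0669).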

How the results depend on the processing

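The direct count of 2468 genes was 436 in the range-matched test, 1041 at an adjusted p under 0.01, 1394 with a log2 difference of at least 1, 1480 without the 8 muscle-rich libraries and 4354 with voom and sample quality weights. It was 3225 with DESeq2 (2456 of the 2468 among them), 2525 with RLE size factors (1276 higher), 2299 without a filter, 2362 with 1 CPM in 8 libraries, 2324 with the 16 libraries alone, and 1880 to 2568 with 1 tumour left out, lowest without Arid1a-fl replicate 8. The range-matched count of 436 was 26 at an adjusted p under 0.01, 1311 with DESeq2 and 2098 with voom. With 1 tumour left out it was 94 to 1405, and 271 to 839 when that tumour was a floxed one. It was 257, 141, 94 and 1405 without control replicates 1 to 4 and 607, 1231, 800, 117 and 130 without control replicates 9 to 13. The 232 genes past both tests became 67 to 544 with 1 tumour left out, lowest without control replicate 3 (66 among the 232) and highest without control replicate 4 (230 among the 232). The 351 genes between control ranges were 1267 with DESeq2 and 741 without control replicate 9. Arid1b and Smarca4, not called, changed sign in the range-matched test, to -0.051 and -0.045. The causes were not tested.

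Of 97 named genes called in the direct test, 90 passed in every fit that left out 1 of the 16 tumours. All kept their call with DESeq2 and RLE, 44 passed the range-matched test, and 75 passed without the muscle-rich libraries. Many were named for a small adjusted p and 12 for passing both tests, so these counts do not describe the called genes in general. Among all 2468 genes called, 232 (9.4%) passed the range-matched test. No paired analysis was possible because the labels give each mouse its own number, name no litters, and hold no replicate numbers that groups share. Depth limits genes such as Hand1, with 0 counts in 8 libraries. Among lists, MHC class I counted 12 higher and 1 lower with RLE.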

Other observations

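In lists of metabolism, survival and collagens the share past the direct test was below the 12.3% of all genes. None of 39 tested genes of oxidative phosphorylation passed. Of 28 genes of glycolysis and hypoxia 1 was higher and 2 were lower (10.7%, close to the share of all genes). Of 16 BCL2 family genes, which govern apoptosis, 1 was lower and none higher (6.25%). Of 39 collagen chains 2 were lower (5.13%). The share was above that of all genes in the PDGF and TLE lists, which hold only 6 tested genes each. Of the PDGF genes 1 was lower (16.7%). Of the TLE corepressors, which are recruited by many transcription factors, 2 were higher (33.3%). No gene of either list passed the range-matched test. Without the muscle-rich libraries no TLE gene passed the direct test, and 1 PDGF gene was lower.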
